A study of Mus musculus with 4 samples.

Results

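The dystrophin complex and the costamere anchor the contractile apparatus of a muscle fibre to its membrane and to the matrix outside. The 8 genes described here encode dystrophin (Dmd), dystroglycan (Dag1), alpha- and beta-sarcoglycan (Sgca, Sgcb), the dystrophin homologue utrophin (Utrn), caveolin-3 (Cav3), desmin (Des) and integrin alpha-7 (Itga7). They were chosen by name, with earlier results of these data known. Every probe set whose annotation gives exactly 1 gene symbol, that of a member, was taken. This gave 14 probe sets of 12488 on the array, and all 8 genes were represented: Itga7 by 3, Dag1, Sgca, Utrn and Cav3 by 2 each, and Dmd, Sgcb and Des by 1 each.

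RNA came from the soleus, a slow-twitch calf muscle, of female mice aged 6 months. Both genotypes, wildtype and HSL-null, were represented by 1 pool of 5 mice and by 2 arrays that the labels call technical duplicates. HSL-null mice lack hormone-sensitive lipase, which Lipe encodes. The labels used here give neither the strain and diet nor how the null allele was made. A single pool per genotype allows no test across animals. The spread between duplicates measures array error, and every comparison below describes these pools.

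Dystrophin binds cytoplasmic actin at one end and beta-dystroglycan at the other, and alpha-dystroglycan binds laminin in the basement membrane. The sarcoglycans stabilise dystroglycan at the membrane, and their loss, like that of dystrophin, causes muscular dystrophy. Costameres are the membrane-bound rib-like assemblies over the Z-discs where this complex, integrin alpha-7 beta-1 and the desmin filaments meet, and utrophin, confined mostly to neuromuscular and myotendinous junctions in adult fibres, can replace dystrophin in part. These are background statements and not results of the arrays.

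To show the regulatory sequence in front of one member of each kind, the RefSeq promoter windows (build GRCm38.p6, 250 bases before to 50 after a gene start) of dystrophin, its membrane partner dystroglycan, caveolin-3 and utrophin are printed 5′ to 3′ along the gene's strand. Windows were given for 7 of the 8 genes. Where a gene had more than 1 start, the most upstream is shown. Capitals mark matches on either strand: the CArG box (serum response factor) and the MEF2 site in Dmd, the Sp1 box GGGCGG in Dag1, and the E-box CANNTG (myogenic and other basic helix-loop-helix factors) in Cav3 and Utrn.
Dmd, chrX:82948620-82948919, plus strand: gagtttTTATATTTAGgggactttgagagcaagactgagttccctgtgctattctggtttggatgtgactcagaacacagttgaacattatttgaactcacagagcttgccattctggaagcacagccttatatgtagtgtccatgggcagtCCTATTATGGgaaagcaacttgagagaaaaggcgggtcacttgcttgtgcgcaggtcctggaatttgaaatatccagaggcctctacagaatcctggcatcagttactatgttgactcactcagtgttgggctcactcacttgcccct
Dag1, chr9:108263909-108264208, minus strand: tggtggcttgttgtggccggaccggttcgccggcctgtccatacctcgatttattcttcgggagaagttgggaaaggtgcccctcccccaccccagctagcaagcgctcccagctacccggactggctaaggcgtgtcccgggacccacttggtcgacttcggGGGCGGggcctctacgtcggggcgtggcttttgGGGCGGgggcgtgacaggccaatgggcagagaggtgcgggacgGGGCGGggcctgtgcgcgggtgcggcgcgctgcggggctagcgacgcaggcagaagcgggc
Cav3, chr6:112459255-112459554, plus strand: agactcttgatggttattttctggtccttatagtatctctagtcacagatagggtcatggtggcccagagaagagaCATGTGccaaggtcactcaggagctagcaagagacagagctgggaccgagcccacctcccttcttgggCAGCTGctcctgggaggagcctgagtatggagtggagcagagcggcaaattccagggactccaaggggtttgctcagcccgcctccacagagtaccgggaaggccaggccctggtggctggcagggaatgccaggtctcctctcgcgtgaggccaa
Utrn, chr10:12861686-12861985, minus strand: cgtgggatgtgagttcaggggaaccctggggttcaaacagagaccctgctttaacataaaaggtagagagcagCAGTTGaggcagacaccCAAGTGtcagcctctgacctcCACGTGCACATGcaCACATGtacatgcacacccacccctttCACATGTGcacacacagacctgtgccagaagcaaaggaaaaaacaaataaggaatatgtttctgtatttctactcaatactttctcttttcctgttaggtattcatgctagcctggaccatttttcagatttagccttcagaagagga

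The windows differed in composition. The Dmd window held 1 CArG box, which starts 98 bases before the gene start, and 1 MEF2 site, 244 bases before it. A CArG box was in 1.64% and a MEF2 site in 3.16% of 32544 distinct windows. The Dag1 window was 69.7% G or C, against a median of 53.0% over all windows, and held 3 Sp1 boxes, a number that 10.8% of windows reached. The Cav3 window held 2 E-boxes, one of them CAGCTG, which 16.4% of windows hold. Des also had a CAGCTG, 36 bases before its start. The Utrn window had a run of 7 E-boxes, some of them overlapping, which 0.178% of windows reached, whereas 72.3% had at least 1. The N-box TTCCGG was in 15% of windows and in none of the members' windows. These windows cover only the gene starts given, and sequence outside them, such as other promoters of a gene, was not searched. Such a match describes the letters, and binding of a factor was not measured.

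Array values were taken as deposited. Intensities were already scaled, with a trimmed mean of 100 on each array, and a log2 difference below is HSL-null minus wildtype after values under 5.70 had been raised to that floor. Of the 14 member probe sets, 12 passed the filter on low values (a mean over the 4 arrays of at least 27.7), and these covered all 8 genes. The 2 others, 1 each for Utrn and Itga7, are given with their values. Lipe measured 71.4 and 70.2 in wildtype and 16.2 and 19.4 in HSL-null, 3.99-fold lower, in the direction of the labels. The 3′ to 5′ signal ratio of beta-actin, a measure of RNA quality, was 0.688 and 0.706 in wildtype and 0.816 and 0.823 in HSL-null. For Gapdh it was 0.955 and 0.927 in wildtype and 0.922 and 0.912 in HSL-null. The part of RNA quality in the differences below was not tested.

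No gene of the set differed by as much as 1.5-fold between the means of the pools. A probe set was called separated if each HSL-null array differed from each wildtype array in the same direction and by at least 1.5-fold. None of the 12 member probe sets above the filter was separated. Over all 6208 probe sets above the filter 0.451% were separated, so that a count of 0 among 12 stands close to the background. Differences of the 12 ran from -0.20 to 0.22 on the log2 scale, with a median of -0.015 against -0.0022 for all 6208. With quantile normalization the members' median was 0.013, and no direction is given for the group.

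Without the size threshold, arrays of the genotypes did not overlap for 5 of the 12. The HSL-null arrays were the lower ones for 4, 1 probe set each of Dag1, Cav3, Itga7 and Des, and the higher ones for 1, of Utrn. Among the 6208 probe sets 40.6% did not overlap, 21.1% with HSL-null lower and 19.5% with HSL-null higher. The share of 5 in 12 is therefore near the background in total. The plot of intensities by array shows these probe sets beside those whose arrays mixed.

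**Figure D1:**
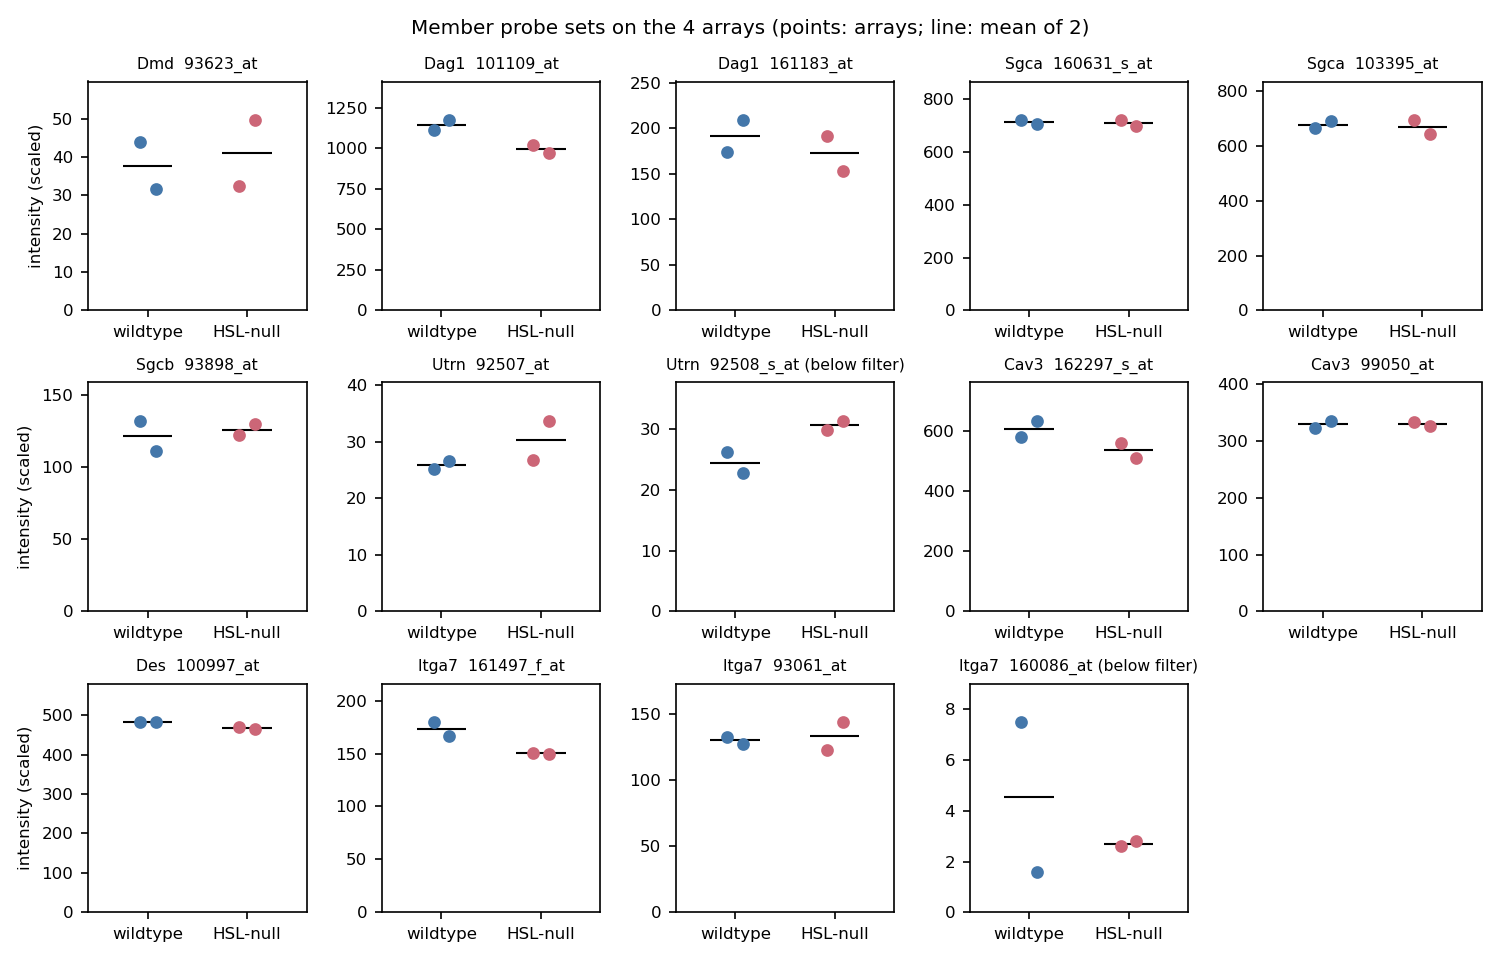
Scaled intensity of the 14 member probe sets, one panel each with an axis from 0; points are single arrays (blue wildtype, red HSL-null) and black lines are means of 2 arrays. The 4 points of most panels lie within a narrow band, Dag1 101109_at has both HSL-null arrays (1016.3 and 970.6) below both wildtype arrays (1113.3 and 1175.3), and the duplicates of Dmd spread more than the genotypes differ.

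Dystrophin itself showed no difference beyond its duplicates. Dmd read 43.9 and 31.6 in wildtype and 32.6 and 49.8 in HSL-null. The arrays of the genotypes overlapped, since the wildtype value of 43.9 lay above the HSL-null value of 32.6. The array pairs ran from -0.43 to 0.66. The log2 difference was 0.11 ± 0.39 (SE of duplicates, n = 2 arrays per pool), and the duplicates of a pool differed by 0.47 in wildtype and 0.61 in HSL-null. At this spread, a difference below the size of the duplicate gap was not detectable for Dmd.

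Utrophin was the one member with higher HSL-null arrays, on both of its probe sets, but at levels close to the filter. Probe set 92507_at measured 25.1 and 26.5 in wildtype and 26.7 and 33.7 in HSL-null. The nearest arrays of the genotypes were 1.01-fold apart, while the HSL-null duplicates were 0.34 apart on the log2 scale. Its difference was 0.22 ± 0.17 (SE of duplicates, n = 2 arrays per pool), which 9.91% of the 6208 probe sets exceeded. Its arrays overlapped under each of the 3 other scalings (median centring, quantile normalization and cyclic loess). The value rests on single arrays: it was 0.050 without HSL-null array 2 and 0.39 without HSL-null array 1. The second probe set, 92508_s_at, lay just below the filter with a mean of 27.6 and measured 26.2 and 22.8 in wildtype and 29.9 and 31.4 in HSL-null. Both HSL-null arrays stood above both wildtype arrays, with the nearest pair 1.14-fold apart. Its difference of 0.33 ± 0.11 kept its sign, and its arrays stayed apart, under each of the 3 other scalings. A lower floor, each array left out and same-numbered arrays paired could not have changed this. Its values lay above the floor, and all of its array pairs already had the same sign. The suffix _s marks probes shared with related transcripts, so that this value may not be that of Utrn alone.

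Dag1 encodes the precursor that is cleaved into alpha- and beta-dystroglycan, the laminin receptor of the complex. Its probe set 101109_at measured 1113.3 and 1175.3 in wildtype and 1016.3 and 970.6 in HSL-null. Both HSL-null arrays were below both wildtype arrays, and the nearest pair was 1.10-fold apart, farther than either pair of duplicates (0.078 and 0.066 on the log2 scale). The wildtype mean was 1144 ± 43.8 and the HSL-null mean 993 ± 32.3 (SD, n = 2 arrays), a log2 difference of -0.20 ± 0.051 or 13.2% lower. Over all probe sets above the filter, 11.7% had a lower difference. The second probe set, 161183_at, measured 174.2 and 209.4 in wildtype and 191.7 and 153.4 in HSL-null. Here the arrays overlapped, with a difference of -0.16 ± 0.21.

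The sarcoglycans form a tight subcomplex beside dystroglycan. Sgca, present almost only in striated muscle, measured 723.1 and 705.8 in wildtype and 720.6 and 697.5 in HSL-null on probe set 160631_s_at. On 103395_at it measured 665.8 and 691.2 in wildtype and 697.1 and 643.8 in HSL-null. On both probe sets the arrays of the genotypes overlapped. The differences were -0.011 ± 0.029 and -0.018 ± 0.063 (SE of duplicates, n = 2 arrays per pool), and the widest array pair on either was 1.07-fold apart. Sgcb measured 132.0 and 111.2 in wildtype and 122.1 and 129.4 in HSL-null, with a difference of 0.053 ± 0.13. Its HSL-null values lay between the wildtype duplicates.

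Caveolin-3, the muscle caveolin that shapes membrane pits and binds beta-dystroglycan, gave unlike answers on its probe sets. On 162297_s_at it measured 578.0 and 632.9 in wildtype and 560.0 and 509.3 in HSL-null, a difference of -0.18 ± 0.095. Leaving out either wildtype array 2 or HSL-null array 2 gave -0.11. Without wildtype array 1 it was -0.245, and without HSL-null array 1 it was -0.248. Both HSL-null arrays were lower, but the nearest pair was 1.03-fold apart, less than the duplicates of either pool (0.13 and 0.14 on the log2 scale). On 99050_at it measured 323.4 and 335.9 in wildtype and 332.7 and 325.7 in HSL-null. There the HSL-null arrays lay between the wildtype arrays, and the difference was -0.0018 ± 0.031. The suffix _s marks the former probe set as one whose probes may be shared.

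Desmin, the intermediate filament that ties Z-discs to costameres, had the closest duplicates of the members. Des measured 481.6 and 483.3 in wildtype and 469.7 and 465.7 in HSL-null. Both HSL-null arrays were lower, and the nearest pair was farther apart (1.03-fold) than either pair of duplicates (0.0051 and 0.012 on the log2 scale). The HSL-null level was 3.06% lower. The difference of -0.045 ± 0.0067 ranged from -0.081 with median centring to -0.022 with quantile normalization, and 38.6% of the 6208 probe sets had a lower one.

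Integrin alpha-7 pairs with integrin beta-1 as the other laminin receptor of the fibre, and its 3 probe sets differed from each other. On 161497_f_at it measured 180.1 and 166.6 in wildtype and 150.8 and 149.9 in HSL-null. Both HSL-null arrays were below both wildtype arrays, with the nearest pair 1.10-fold apart, and the difference was -0.20 ± 0.056 (SE of duplicates, n = 2 arrays per pool), or 13.2% lower. The suffix _f marks a probe set that can share probes with a family of sequences. On 93061_at Itga7 measured 133.2 and 127.8 in wildtype and 122.8 and 144.5 in HSL-null, with a difference of 0.030 ± 0.12. Here the wildtype arrays lay between the HSL-null arrays. The remaining probe set, 160086_at, read 7.5 and 1.6 in wildtype and 2.6 and 2.8 in HSL-null. It was below the floor on 3 arrays and gives no direction.

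**Figure D2:**
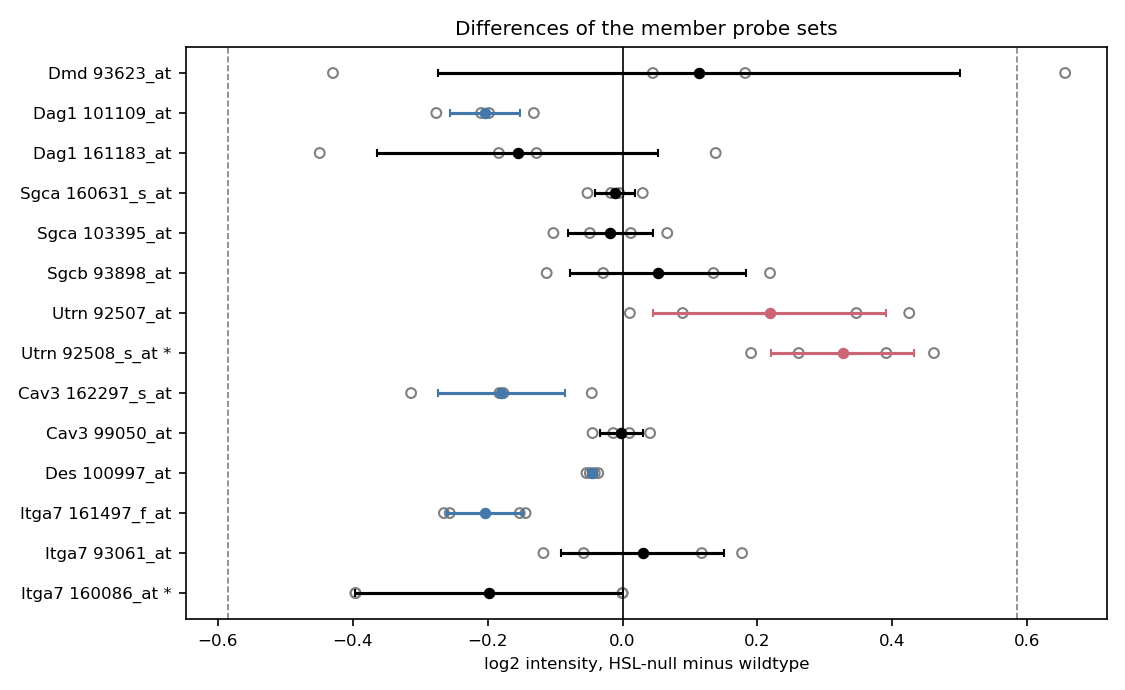
Log2 difference, HSL-null minus wildtype, for each member probe set; filled points are the mean with the SE of duplicates, open circles the 4 array pairs, dashed lines 1.5-fold, and asterisks the 2 probe sets below the filter. Blue and red mark probe sets whose arrays did not overlap, with HSL-null lower (4) or higher (2), and the means all lie inside the dashed lines.

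Where a gene had more than 1 probe set, the lower HSL-null arrays were thus seen on 1 of 2 for Dag1, 1 of 2 for Cav3 and 1 of 3 for Itga7. The 4 probe sets with lower HSL-null arrays were Dag1 101109_at, Cav3 162297_s_at, Itga7 161497_f_at and Des. They kept their sign and did not overlap under each of the 3 other scalings. The remaining alternatives were a lower floor, each array left out and same-numbered arrays paired. These could not have come out otherwise, since the values lay above the floor and all array pairs already had the same sign. The plot of level against difference sets the members among all probe sets.

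**Figure D3:**
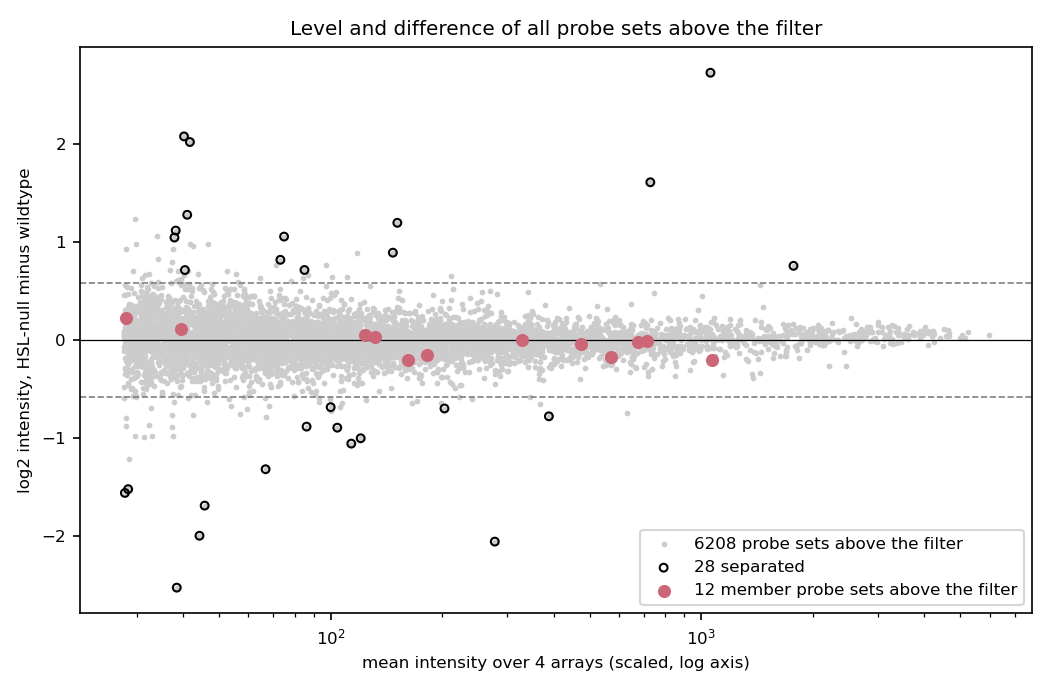
Mean intensity over the 4 arrays (log axis) against the log2 difference, HSL-null minus wildtype, for 6208 probe sets above the filter (grey), the 28 separated ones (black rings) and the 12 member probe sets (red). Dashed lines mark 1.5-fold. Members lie inside the grey cloud, between -0.20 and 0.22, and none coincides with a ring.

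Other genes of the complex and the costamere were listed by role, 91 in 7 lists, with 63 represented on the array and 48 above the filter, each represented by its brightest probe set. None of the 48 was separated, against 0.454% of 4851 named genes. Arrays did not overlap for 21, 10 with HSL-null higher and 11 lower. Over all named genes the shares were 41.2% in total, 19.7% higher and 21.5% lower, so that 21 of 48 is close to the background.

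Dystrobrevins, syntrophins and neuronal nitric oxide synthase bind the cytoplasmic end of dystrophin. Of 5 on the array, 1 was above the filter, the dystrobrevin Dtna, at 68.6 and 67.6 in wildtype and 63.1 and 71.6 in HSL-null, with the wildtype arrays between the HSL-null ones. Dtnb, Sntb1, Sntb2 and Nos1 were below the filter. Of the other sarcoglycans and sarcospan, a tetraspanin-like partner of the sarcoglycans, 2 were above it. Sspn measured 784.2 and 868.8 in wildtype and 862.1 and 799.2 in HSL-null, a difference of 0.0081 ± 0.092, and Sgce differed by 0.062 ± 0.13. Both overlapped. Enzymes of dystroglycan glycosylation, which build the laminin-binding sugar chain or its mannose donor, had 4 members above the filter and all 4 overlapped (1 was higher with quantile normalization or cyclic loess). The brightest, Dpm1, a subunit of dolichol-phosphate-mannose synthase, differed by 0.030 ± 0.12. Below the filter, and named after its values were seen, Gmppb, which makes GDP-mannose, read 20.3 and 19.4 in wildtype and 33.2 and 27.9 in HSL-null. Its HSL-null arrays were higher, here and under the 3 other scalings, by 1.53-fold on average and 1.37-fold at the nearest pair.

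Laminins and other matrix ligands had 14 genes above the filter, 5 with higher (3 with median centring) and 2 with lower HSL-null arrays, and a median of 0.024. The shares over all named genes were 19.7% higher and 21.5% lower, with a median of -0.0041. The counts of this list are a description only. One of the 5, Agrn, which encodes agrin and is named after its values were seen, differed by 0.033 ± 0.0059 and overlapped under the 3 other scalings. Its second probe set, 97921_at, measured 49.3 and 52.3 in wildtype and 40.3 and 36.0 in HSL-null, apart in the opposite direction at -0.41 ± 0.092, so that no direction is given for Agrn. Lama2, the laminin alpha-2 chain that binds both dystroglycan and integrin alpha-7, measured 181.8 and 185.8 in wildtype and 159.7 and 162.9 in HSL-null. Its HSL-null arrays were the lower ones, and the difference was -0.19 ± 0.021 (SE of duplicates, n = 2 arrays per pool). Lama5, the laminin alpha-5 chain, measured 44.0 and 39.7 in wildtype and 49.4 and 52.8 in HSL-null, a difference of 0.29 ± 0.088 in the other direction. The brightest, the proteoglycan Bgn, differed by -0.071 ± 0.079 and overlapped. Lama2 and Lama5 kept their signs, with arrays apart, under the 3 other scalings. The list's median was -0.013 with median centring.

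The integrin, vinculin and talin layer of the costamere links integrins to actin. It had 8 genes above the filter, 2 with higher and 1 with lower HSL-null arrays, beside 19.7% and 21.5% of all named genes. With median centring 0 were higher and 3 lower, so that no direction is given for the list. Vcl, which encodes vinculin, measured 422.1 and 433.3 in wildtype and 395.7 and 389.5 in HSL-null, a difference of -0.12 ± 0.022 on its brightest probe set. Its other probe set, 94964_at, measured 22.5 and 28.7 in wildtype and 30.5 and 33.6 in HSL-null and was apart in the opposite direction, so that no direction is given for Vcl. Tln1, which encodes talin, differed by 0.089 ± 0.027 with higher HSL-null arrays, though they overlapped with median centring and on its other 2 probe sets. Itgb1, the beta-1 partner of integrin alpha-7, measured 1563.4 and 1496.3 in wildtype and 1546.7 and 1507.0 in HSL-null. Its difference was -0.0026 ± 0.037, and the HSL-null arrays lay between the wildtype ones.

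Intermediate filaments, plectin, ankyrins and spectrins include the cytoskeletal neighbours of desmin. The list is wider than its name: it also held Xirp1, Svil and Cryab, which belong to none of these classes, and the nuclear lamin gene Lmna. Xirp1, Cryab and Lmna are among the lower genes counted next. Of 10 genes above the filter, 7 had lower and 1 had higher HSL-null arrays, and the median was -0.17, against -0.0041 for all named genes. Over all named genes 21.5% had lower and 19.7% higher HSL-null arrays. This is 1 of 7 lists, all chosen with earlier results of these data known, so that the excess is a description only. The counts of lower and higher were 7 and 1 under each of the 3 other scalings too, with medians of -0.21 (median centring), -0.15 (quantile normalization) and -0.15 (cyclic loess). The genes were not all the same: 7 of the 7 lower genes were shared with median centring and 6 with each of the others, where Ank1 overlapped and Svil did not. Xirp1, the actin-binding Xin repeat protein of myotendinous junctions and stressed fibres, measured 1555.2 and 1515.9 in wildtype and 1201.2 and 1216.5 in HSL-null. Both HSL-null arrays were lower, with the nearest pair 1.25-fold apart, and the difference was -0.35 ± 0.021 (SE of duplicates, n = 2 arrays per pool), 1.27-fold lower. Ank3, which encodes ankyrin-G, measured 212.5 and 289.4 in wildtype and 208.6 and 199.8 in HSL-null, a difference of -0.28 ± 0.22. Its second probe set, 98477_s_at, was also lower on both HSL-null arrays, at -0.39 ± 0.16. The brightest gene, Svil, which encodes the costameric protein supervillin, differed by -0.070 ± 0.060 and overlapped.

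Further genes of that list, chosen after their values were seen, were Plec, Lmna, Nes and Sptbn1. Plec, the plectin that links desmin to the membrane and to Z-discs, measured 324.1 and 300.8 in wildtype and 238.3 and 288.2 in HSL-null, a difference of -0.25 ± 0.15. Lmna, the nuclear lamin A/C, measured 1390.9 and 1488.4 in wildtype and 1297.6 and 1182.8 in HSL-null, a difference of -0.22 ± 0.083. Its second probe set, 98060_at, gave -0.23 ± 0.040. Nes, the filament protein nestin, differed by -0.21 ± 0.039. All of these had lower HSL-null arrays, whereas Sptbn1, a beta-spectrin, was the gene with higher ones, at 0.16 ± 0.018.

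Caveolae and membrane repair genes had 9 members above the filter, 2 with higher and 1 with lower HSL-null arrays, and a median of 0.043. Anxa1, an annexin of membrane repair, measured 150.8 and 145.1 in wildtype and 170.7 and 187.2 in HSL-null, a difference of 0.27 ± 0.072. Its other probe set above the filter, 161703_f_at, overlapped, at 0.15 ± 0.12. Anxa6, another repair annexin, measured 582.7 and 600.8 in wildtype and 528.9 and 455.8 in HSL-null, a difference of -0.27 ± 0.11. The brightest, Capn3, the muscle calpain of limb-girdle dystrophy, differed by 0.080 ± 0.097 and overlapped.

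**Figure D4:**
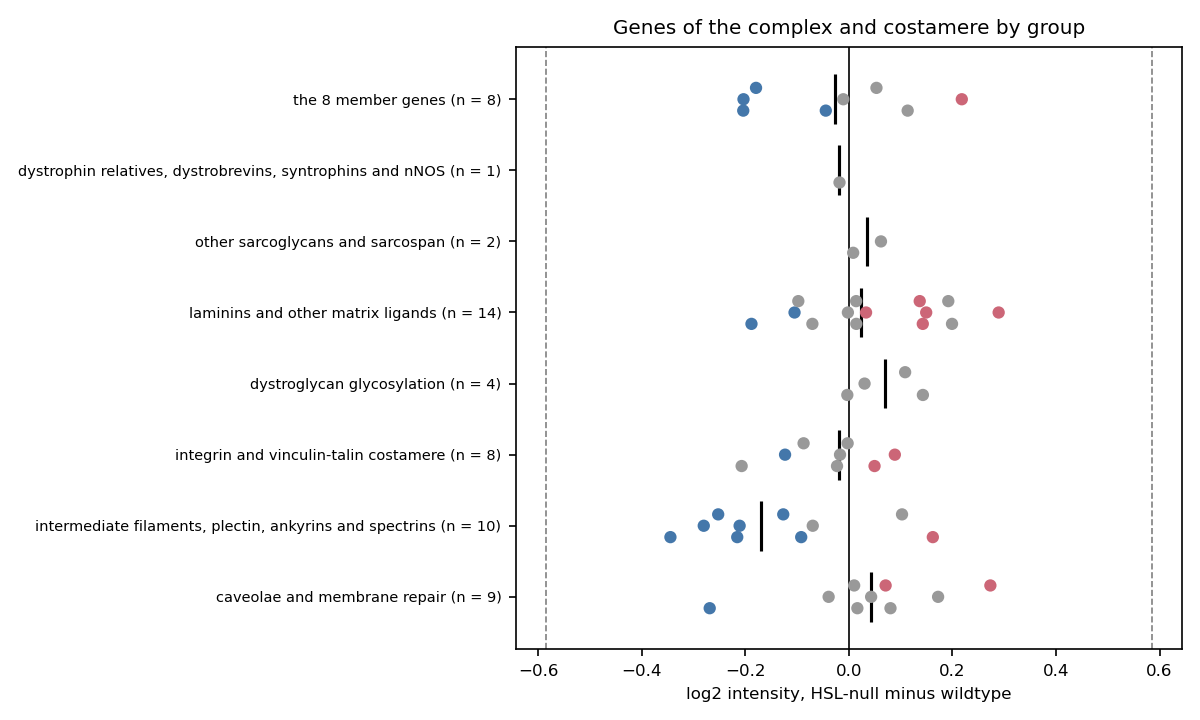
Log2 difference, HSL-null minus wildtype, for genes above the filter in each list (points; brightest probe set per gene), with the list median as a black bar and 1.5-fold as dashed lines. Blue and red points are genes whose arrays did not overlap, lower and higher in HSL-null. In the intermediate filament list 7 of the 10 genes are blue, against 21.5% of all named genes, and every point lies inside the dashed lines.

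Markers of other cell types were examined because several members are not specific to fibres: Des and Itga7 are also made by smooth muscle, and Utrn and Dag1 by endothelium and Schwann cells. In bulk muscle, fewer cells of a type and less RNA per cell cannot be told apart. All 8 skeletal and slow fibre markers were above the filter, and their summed intensity was 33729 to 35450 in wildtype and 35262 to 36587 in HSL-null, so that the defining markers of the labelled tissue are present. Of 5 fast fibre markers 3 (Myh4, Actn3 and Pvalb) were separated higher, and the sum was 10613 to 11493 in wildtype and 14487 to 14624 in HSL-null. Smooth muscle and pericyte markers (6, of which Cnn1 was below the floor on all arrays) summed to 719.6 to 743.6 in wildtype and 724.7 to 729.7 in HSL-null. Within that sum Myh11, the smooth muscle myosin heavy chain, chosen after its values were seen, measured 76.9 and 83.1 in wildtype and 51.3 and 55.1 in HSL-null. Its HSL-null arrays were the lower ones, with a difference of -0.59 ± 0.076 and the nearest pair 1.40-fold apart. Tagln had higher HSL-null arrays (0.12 ± 0.078), and the other 3 above the filter overlapped. Endothelial markers (6) summed to 787.4 to 825.6 in wildtype and 755.8 to 767.1 in HSL-null, with all 6 below 0 and 1 of them apart. Schwann cell markers (3 of the 6 listed were on the array) summed to 206.9 to 248.9 in wildtype and 224.1 to 240.0 in HSL-null. Regenerating fibre markers (5) summed to 298.5 to 315.4 in HSL-null and 298.6 to 300.5 in wildtype. One of them, the myosin Myh3, named after its values were seen, measured 37.9 and 40.1 in wildtype. In HSL-null Myh3 measured 31.3 and 30.4, a difference of -0.34 ± 0.046 with lower HSL-null arrays. The other 3 of that list above the filter overlapped. Fibroblast markers (5) were higher on both HSL-null arrays, at 3693 to 3820 against 3216 to 3244. Adipocyte markers (4 of 6 on the array, Lipe and Adipoq separated lower) were lower, at 161.7 to 185.3 against 317.9 to 318.4. Without Lipe, the targeted gene, a sum added after the data were seen, they stood at 142.3 to 169.1 against 247.0 to 247.7. Fabp4 differed by -0.18 ± 0.11, and Retn, below the filter, overlapped. None of these lists had a gene at 0 on all arrays, and their part in the members' differences was not tested.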

How the data were processed

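RNA of soleus muscle was measured on 4 arrays, 2 technical duplicates of 1 pool per genotype, per the labels. The authors deposited 1 linear intensity per probe set and array. The sources used here do not name the software or the background correction. No replicate check across animals exists and no p-value was computed; the number of arrays limits the precision.

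Gene names came from the platform annotation (10855 with 1 symbol, 396 with several, 1237 without a listed symbol), and 10839 symbols were matched by gene ID to RefSeq (GRCm38.p6). Intensities were floored at the 25th percentile (5.70) and log2-transformed, 66 control probe sets were left out, and the filter was the median of mean intensity (27.7). Every member probe set is named. From each pathway list the rule names separated genes or, with none, the 2 non-overlapping genes with the largest difference and the brightest gene; others are said to be chosen after their values were seen. Members and lists were chosen with earlier results of these data known. The rule was also run on simulated arrays, and no statement here rests on that run. Python 3.11.15, numpy 2.4.6, pandas 2.3.3, R 4.3.3 and limma 3.58.1 were used; 0 was set to 0.1 before quantile normalization and cyclic loess. Same-numbered arrays did not deviate together (correlation -0.086 across probe sets), so that the numbers were not taken as pairs.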

Additional observations from a re-analysis of the deposited data

How the results depend on the processing

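The count of 0 separated member probe sets held in every alternative run: 3 scalings, a floor at the 10th percentile, no filter, a filter at the 75th percentile, thresholds of 1.2-fold and 2-fold, each array left out, and the replicate block, in which only same-numbered arrays are compared. Of these, the 2-fold threshold, the filter at the 75th percentile and the lower floor could not have raised a count of 0. The replicate block gave 6 non-overlapping member probe sets in place of 5, and 35 separated probe sets over the whole array in place of 28. With an array left out, fewer pairs must agree, and the count of non-overlapping members was 7 to 10 and that of all separated probe sets 82 to 109. Fewer pairs must agree in the replicate block too. The share of non-overlapping probe sets over the whole array was not taken under these settings. The member counts of 6 and of 7 to 10 therefore have no background here and are not read as a result. Over the whole array, 176 probe sets were separated without a filter, 10 with the stricter filter, 226 at 1.2-fold and 14 at 2-fold. The members' median of -0.015 was -0.051 with median centring, 0.013 with quantile normalization, -0.032 with the stricter filter and -0.028 with 1 probe set per gene, and -0.043 to -0.017 with an array left out. The median over all probe sets above the filter was -0.0022 in the main run, -0.038 with median centring and 0.0012 with quantile normalization. The shift with median centring was thus shared by the array as a whole. The cause of the other shifts was not tested. Of the pathway genes, 1 was separated without a filter, Krt8, which was below the floor on both wildtype arrays, and 1 at 1.2-fold, Xirp1.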
